A study of Homo sapiens with 8 samples.

Results

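The peaks of histone H3 lysine 4 monomethylation (H3K4me1) in ARID1A knockout MDA-MB-231 cells comprised 73600 of the 73603 regions called in the knockout immunoprecipitate over the knockout input, namely those on chromosomes 1 to 22 and X. The other 3 regions lay on other sequences, and the deposited lists of the whole series held 156603 regions. MDA-MB-231 is an established human triple-negative breast cancer line of the claudin-low, mesenchymal kind. The series comprised 8 chromatin samples in 4 groups of 2, an input and an immunoprecipitate of control cells and of ARID1A knockout cells, with no treatment named for any group. The 2 knockout inputs and 2 knockout immunoprecipitates stand behind the regions described here, and 1 list was deposited for the genotype. No source used here says how its replicate libraries were combined or whether the knockout line is 1 clone. The sample labels name the target as H3K4me1 with antibody ab8895, whereas the protocol text names H3K4me3, and the label is followed here. With 1 list no value has a replicate error and no test between groups was made, so the numbers below are descriptions. Confidence intervals are exact binomial and cover counting error only.

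ARID1A is the DNA-binding subunit of the canonical BAF (SWI/SNF) complex, which moves nucleosomes and is found largely at enhancers. H3K4me1 is written mainly by KMT2C and KMT2D and marks enhancers, active or poised, and the flanks of active promoters. At the promoter itself the mark usually gives way to H3K4me3, so that H3K4me1 often lies on both sides of a start site. In mesenchymal breast cancer cells, enhancers bound by AP-1, TEAD, RUNX and ETS factors are known to lie in and around cytoskeletal, adhesion and signalling genes. A peak marks chromatin, and says nothing by itself of how strongly a gene is transcribed.

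Promoters lay between peaks, inside a peak or far from any, and 4 of them show these arrangements. Each sequence is the 250 bases before the most upstream start site, from the RefSeq table of GRCh38.p14, given 5′ to 3′ on the gene's strand, with CG dinucleotides in capitals. ARID1A (chr1:26695765-26696014, plus strand) and SMAD3 (chr15:67065352-67065601, plus strand) have CG-dense promoters that lay in the gap between peaks. PALLD (chr4:168496802-168497051, plus strand) has a CG-poor promoter inside a peak. ALB, the liver albumin gene (chr4:73404037-73404286, plus strand), has a CG-poor promoter with no peak near.
ARID1A promoter: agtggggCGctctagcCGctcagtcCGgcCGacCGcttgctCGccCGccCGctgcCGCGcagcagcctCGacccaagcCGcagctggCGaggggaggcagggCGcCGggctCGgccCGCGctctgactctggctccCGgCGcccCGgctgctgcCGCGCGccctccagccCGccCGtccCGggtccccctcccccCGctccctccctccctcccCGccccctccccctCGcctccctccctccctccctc
SMAD3 promoter: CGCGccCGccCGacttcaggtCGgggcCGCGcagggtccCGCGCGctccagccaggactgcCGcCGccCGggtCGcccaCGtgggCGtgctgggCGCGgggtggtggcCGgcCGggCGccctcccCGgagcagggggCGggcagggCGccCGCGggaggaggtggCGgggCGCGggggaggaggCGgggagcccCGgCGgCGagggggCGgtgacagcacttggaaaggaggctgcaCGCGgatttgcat
PALLD promoter: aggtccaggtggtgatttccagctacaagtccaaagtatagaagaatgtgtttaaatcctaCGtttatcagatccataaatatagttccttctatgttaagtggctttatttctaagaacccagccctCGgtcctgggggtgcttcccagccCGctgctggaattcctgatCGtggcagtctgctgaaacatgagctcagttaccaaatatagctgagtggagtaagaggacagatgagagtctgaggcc
ALB promoter: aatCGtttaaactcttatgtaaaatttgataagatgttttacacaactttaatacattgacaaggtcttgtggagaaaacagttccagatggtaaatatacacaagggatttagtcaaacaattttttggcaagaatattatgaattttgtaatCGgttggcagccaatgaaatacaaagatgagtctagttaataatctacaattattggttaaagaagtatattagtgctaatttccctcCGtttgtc

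These windows held 30 CG dinucleotides for ARID1A, 36 for SMAD3, 4 for PALLD and 3 for ALB. The ARID1A start lay 814 bases from the peak upstream and 2374 bases from the peak downstream. The SMAD3 start lay 1735 bases from the upstream peak and 2656 bases from the downstream one. The nearest peaks to the ALB start were 94464 bases upstream and 45597 bases downstream.

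Peaks also lay over microRNA loci, and the mature strands of 8 described further on are given here. These are 3 from loci wholly inside broad peaks, the miR-221 and miR-222 pair, and members of the epithelial miR-200 family. They were chosen after their values were seen. They come from RefSeq on GRCh38.p14, 5′ to 3′, with the seed (bases 2 to 8) in capitals. miR-200b and miR-200c share a seed that differs from that of miR-141, and miR-221 and miR-222 share another.
hsa-miR-100-5p: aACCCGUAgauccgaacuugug
hsa-let-7a-5p: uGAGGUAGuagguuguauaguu
hsa-miR-30a-5p: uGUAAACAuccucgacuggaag
hsa-miR-221-3p: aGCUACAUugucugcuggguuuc
hsa-miR-222-3p: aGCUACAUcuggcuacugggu
hsa-miR-200b-3p: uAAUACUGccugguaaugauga
hsa-miR-200c-3p: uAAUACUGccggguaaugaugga
hsa-miR-141-3p: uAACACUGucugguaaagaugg

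The knockout peaks covered 176 Mb, and most were short. Width ran from 361 to 188217 bases with a median of 1587 (quartiles 880 and 2866). Peaks under 1000 bases made up 29.7% of the list and held 8.08% of the covered bases. At the other end, the 1559 peaks of at least 10000 bases were 2.12% of the list and held 13.6% of the bases. The widest 10% of peaks held 35.5% of the covered bases and the widest 50% held 81.1%. The covered extent was thus weighted toward the wider peaks, and 9 of them spanned at least 50000 bases.

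Pileup, the authors' value for the height of overlapping fragments, ran from 8 to 78.46 with a median of 16.4 (quartiles 12.19 and 22.41). Fold enrichment over the local background had a median of 3.07 and ran from 1.84 to 8.33. The −log10 q had a median of 3.77 and ran from 1.01 to 40.3. Wider peaks were also higher. The median pileup was 11.31 in the narrowest 10% of peaks (361 to 535 bases) and 25.17 in the widest 10% (4961 bases or more), rising at each step between. Over the 73600 peaks Spearman's rank correlation of pileup and width was 0.592. The local background implied by pileup and fold enrichment moved with both, at a median of 3.76 in the narrowest and 5.70 in the widest 10%. Its rank correlation with pileup was 0.790, in part by construction since pileup enters both, and its part in the widths was not tested.

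Neighbouring peaks were often close. The gap between neighbouring peaks had a median of 12320 bases (quartiles 4289 and 33551), 28.4% of gaps were under 5000 bases and 7.20% were at least 0.1 Mb. No gap was shorter than 1445 bases, so a narrower dip inside a marked region does not appear as a gap. The widest 10% of peaks lay closest to a neighbour, with a median of 3305 bases to the nearest peak against 7887.5 bases in the narrowest 10%. Over all peaks the rank correlation of width and nearest gap was −0.150, a weak relation.

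**Figure D1:**
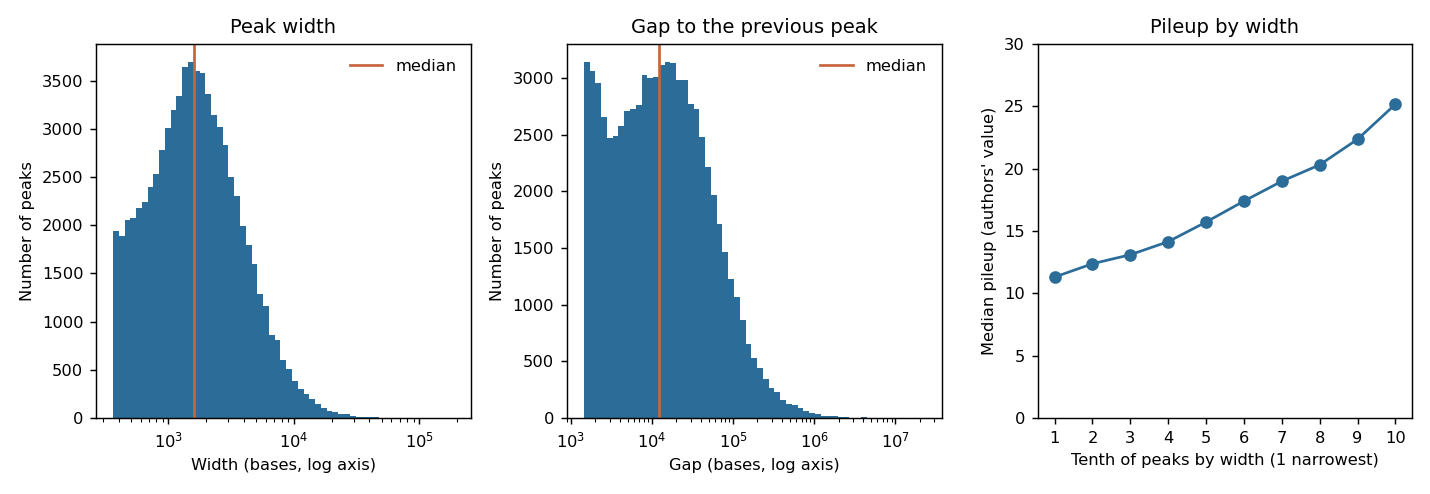
The left and middle panels count the 73600 knockout peaks by width and by gap to the previous peak, in bases on log axes, with the medians (1587 and 12320 bases) as vertical lines. The right panel gives the median pileup in each of 10 equal classes of peaks by width, rising from 11.31 to 25.17.

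Coverage of genes was measured in windows that run from 5000 bases before to 5000 bases after each protein-coding record of RefSeq GRCh38.p14. Of 19974 genes, 15944 (79.8%) had at least 1 covered base and 4030 had none. The median gene had 2 peaks, 3686 covered bases (quartiles 928 and 7951.75) and 8.73% of its window covered. At least 25% of the window was covered in 3239 genes (16.2%) and at least 50% in 553. These windows together held 69.8% of all covered bases. Covered bases grew with window length (rank correlation 0.511 over genes), while the percent did not (rank correlation −0.034), so both measures are given.

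The most covered genes were long genes of varied function, and their median window was 506835 bases against 34164 over all genes. EXT1, a heparan sulfate polymerase on chromosome 8 (record 117794490 to 118111826), led with 276211 covered bases in 9 peaks, 84.4% of its window. DST, which codes for the plakin that links the cytoskeleton to hemidesmosomes, had 221075 bases in 31 peaks (43.6%). These lead by different arrangements, since 1 peak of 188217 bases held most of the EXT1 coverage and the widest of the DST peaks was 37250 bases. FRMD6, a FERM-domain gene tied to the Hippo pathway, had 159697 bases in 16 peaks (46.4%). FNDC3B, a fibronectin type III domain gene, had 156220 bases in 21 peaks (42.0%). PALLD, an actin-bundling scaffold, had 154941 bases in 42 peaks (35.1%). All of these except EXT1 were built from more than 15 separate peaks.

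Some of the 25 leading genes act on actin, adhesion or small GTPases. TRIO, a guanine nucleotide exchange factor, had 149897 covered bases in 10 peaks (39.8%). ASAP1, an Arf GTPase-activating protein of focal adhesions, had 144578 bases in 29 peaks (36.0%). FMNL2, a formin that elongates actin filaments, had 134378 bases in 21 peaks (41.4%). LPP, a LIM protein of focal adhesions, reached 136702 bases with 44 peaks over a long window, of which only 18.3% was covered. PARD3, a polarity scaffold, had 150984 bases (21.1%), and the FERM-domain scaffold FRMD4A closed the 25 at 120034 bases (17.2%). RASAL2, a Ras GTPase-activating protein, had 131378 bases (33.3%).

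Others code for receptors, ligands or phosphatases. The Hippo-linked phosphatase PTPN14 had 125254 bases in 13 peaks, 58.8% of its window, the second highest percent of the 25 after EXT1. RBMS1, an RNA-binding protein gene, followed with 133303 bases in 25 peaks (57.5%). EFNA5, an ephrin ligand, had 127592 bases (42.0%). The receptor phosphatase gene PTPRG had 145462 bases (19.5%), and the ERBB ligand gene NRG1 had 134190 bases over a window of 1144802 bases (11.7%). The teneurin adhesion genes TENM2 and TENM3 had the most peaks, 62 and 56, but only 10.1% and 9.48% of their windows were covered. In these long genes many spaced peaks added up to a high rank.

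The chromatin and DNA repair genes among the 25 were JARID2, an accessory subunit of Polycomb complex 2, with 123096 bases (43.0%), and FOXP1, a forkhead factor, with 122517 bases (19.2%). RAD51B, a homologous recombination gene, had 122116 bases (14.0%). CAST, the calpain inhibitor gene, had 145337 bases (17.7%). The nucleoporin gene RANBP2, with 172297 bases in 54 peaks, owes its place to a record whose window spans 1132820 bases and takes in SH3RF3, itself with 117275 bases covered. IQCJ-SCHIP1, a readthrough record, had 134633 bases (16.1%) and takes in SCHIP1. In all, 54 genes had at least 0.1 Mb covered.

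**Figure D2:**
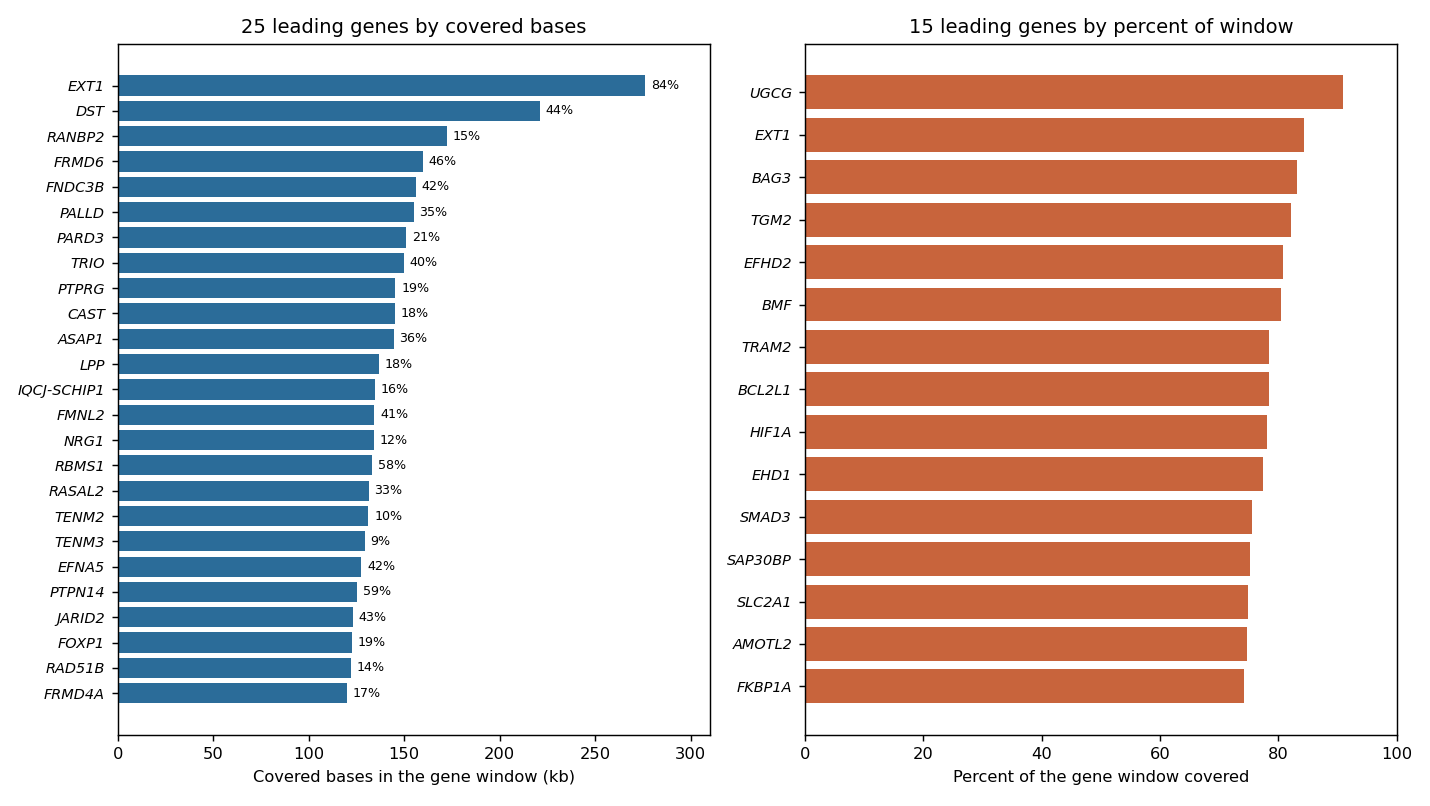
The left panel gives covered bases (kb) in the windows of the 25 leading genes, with the percent of the window covered beside each bar, and the right panel the percent for the 15 leading genes with windows of at least 30000 bases. EXT1 is the only gene in both panels, and the percents on the left run from 9.48% (TENM3) to 84.4% (EXT1).

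By percent of the window, among the 10991 genes with windows of at least 30000 bases, the leading genes were shorter and were nearly filled by 1 or a few broad peaks. UGCG, the glucosylceramide synthase gene, was 90.9% covered by 2 peaks of 4455 and 40671 bases. BAG3, a stress-induced co-chaperone gene, was 83.1% covered, mostly by 1 peak of 30196 bases. HIF1A, the hypoxia-inducible factor, was 78.1% covered by 3 peaks, of which the middle one spanned 43798 bases. SMAD3, the TGF-beta signal transducer, was 75.5% covered (105312 bases) and 1 of its 4 peaks spanned 94218 bases. AMOTL2, an angiomotin gene that binds and is induced by YAP, was 74.8% covered by 2 peaks. Only 134 of the 10991 windows were at least 50% covered.

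Several of the densely covered genes act in cell survival, metabolism and trafficking. The anti-apoptotic BCL2L1 was 78.4% covered and the pro-apoptotic BMF 80.4%. The glucose transporter SLC2A1 was 74.9% covered, and EHD1, an endocytic recycling gene, 77.5%. TRAM2, of the endoplasmic reticulum translocon, was 78.4% covered, EFHD2, a calcium-binding actin regulator, 80.7%, SAP30BP, which codes for a partner of the corepressor subunit SAP30, 75.2%, and the immunophilin gene FKBP1A 74.1%. TGM2, the tissue transglutaminase gene, was 82.1% covered by 4 peaks that were far higher than the typical peak, with pileups of 53.82, 51.67, 56.14 and 41.77 against a median of 16.4 in the list. The implied local background at TGM2 was also high, at a median of 9.24 against 4.61 over all peaks. BCL2L1 showed the same, with a median pileup of 43.88 and an implied background of 10.1. Both lie on chromosome 20, where the median implied background was 1.43 times that of all peaks, and what that contributes to the pileups was not tested.

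ARID1A itself, the targeted gene, carried 9 peaks with 39191 covered bases, 40.8% of its window. It ranked 481st of all genes by covered bases and 327th by percent among windows of at least 30000 bases. The peaks were 4590, 11016, 1370, 3753, 6098, 2139, 2700, 5292 and 2749 bases wide in order along the gene. Their pileups were 23.8, 32.12, 11.12, 10.95, 23.71, 12.26, 23, 19.52 and 19.38. The highest and widest was the second, the first downstream of the start site. The list thus shows the mark around the ARID1A promoter in the knockout cells. Peaks do not show a small edit, so this is no check of the knockout.

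**Figure D3:**
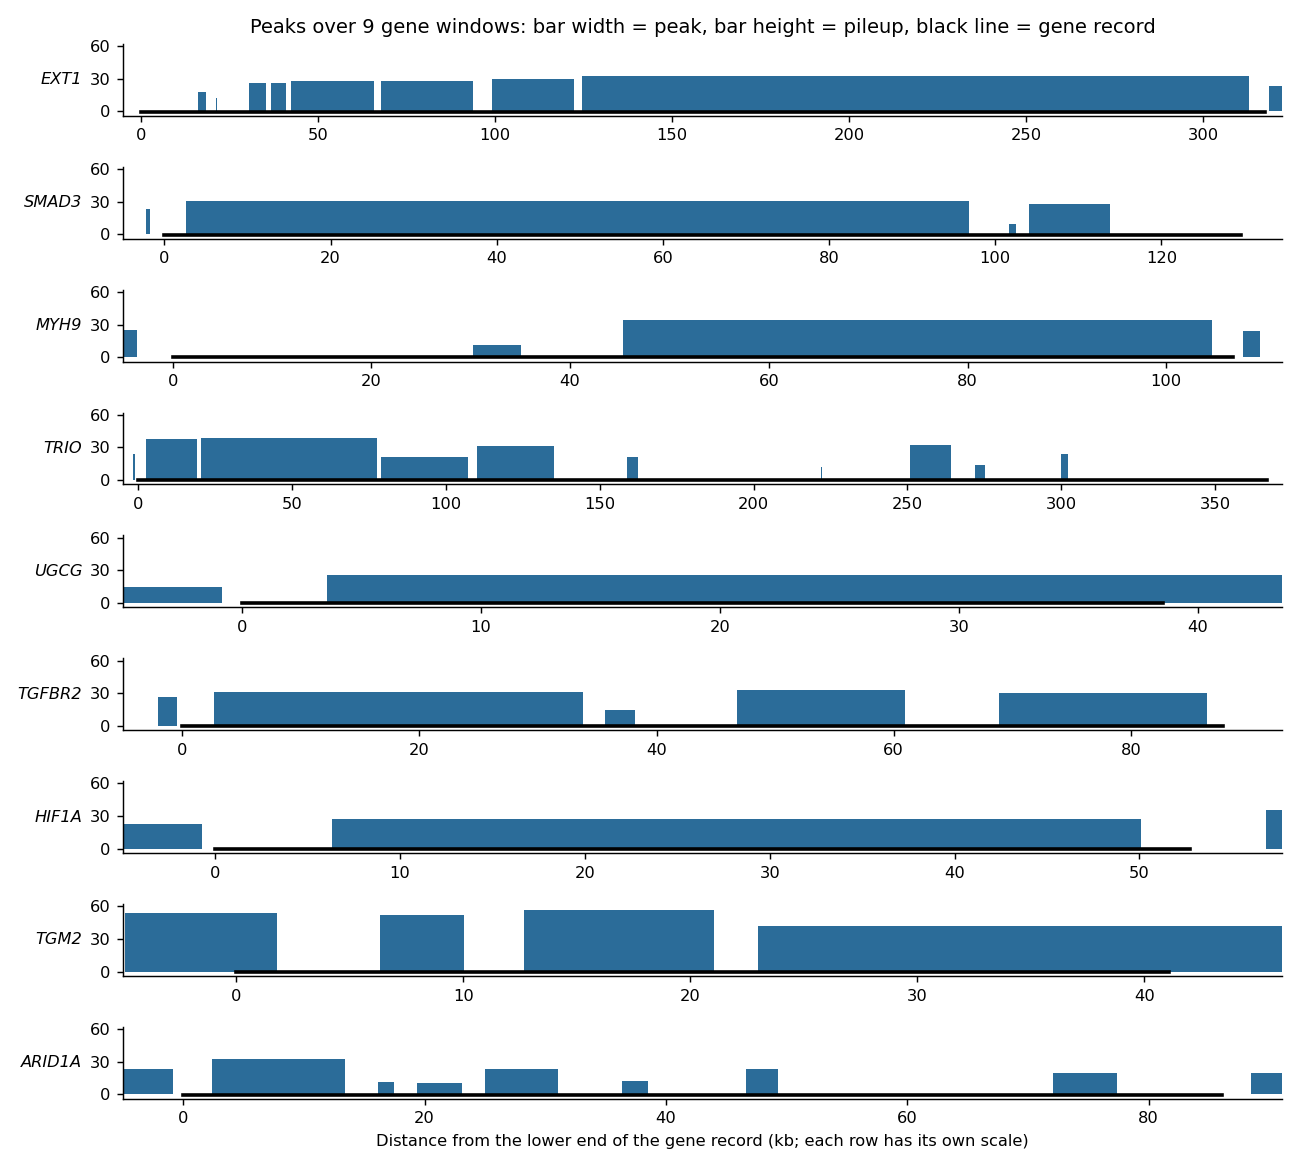
Each row is the window of 1 gene with its own scale in kb from the lower end of the gene record (black line), and each bar is a peak whose height is its pileup. EXT1, MYH9 and TGM2 are transcribed from right to left and the other 6 genes from left to right, and the broadest peak of SMAD3, UGCG, TGFBR2, HIF1A and ARID1A begins within 7000 bases of the start.

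Among TGF-beta pathway genes, 23 of 23 had a covered base, against 79.8% of all genes. Their median window was 90614 bases against 34164 over all genes, and a longer window meets a peak more easily. At least 25% of the window was covered in 9 (39.1% against 16.2% of all genes), with a median of 22.1% against 8.73%. The signal transducer SMAD3 was the most covered of the 23. The receptor gene TGFBR2 had 66973 bases (68.5%) in 5 peaks, of 1618, 31044, 2584, 14160 and 17567 bases with pileups from 14.41 to 33.21. TGFBR3, the betaglycan co-receptor gene, had 87164 bases (37.0%). Other receptor genes, named here after their values were seen, were lower, with TGFBR1 at 12.5%, ACVR1 at 12.4%, ACVR1B at 7.83%, BMPR1A at 7.82% and BMPR2 at 5.98%. The ligand gene TGFB2 stood at 53.5%, the target TGFBI at 52.5% and the inhibitor gene SMAD7 at 49.5%. With peaks of −log10 q of at least 5 alone the median was 7.67% against 2.26% over all genes.

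YAP and TEAD target genes had a covered base in 23 of 24 (95.8% against 79.8% of all genes). The median window of this list was long as well (84832 bases against 34164 over all genes). At least 25% of the window was covered in 16 (66.7% against 16.2% of all genes), with a median of 34.7%. ASAP1 and PTPN14, described above, and CRIM1, a transmembrane gene that binds growth factors, had the most bases (CRIM1 117872, 57.4%). AMOTL2, the kinase gene NUAK2 (65.6%) and FJX1 (63.9%) had the highest percents. FOXF2, a forkhead gene, was the member with none. Of the listed genes of AP-1, the dimeric factor of FOS and JUN proteins, and of related factors, 12 of 12 had a covered base. At least 25% was covered in 7 (58.3%), with a median of 34.1%. FOSL1 stood at 60.05%, MAFF at 54.95%, BACH1 at 54.2% and FOSL2 at 50.4%. The other FOS and JUN genes, named here after their values were seen, were lower. FOS stood at 3.77%, JUN at 20.9%, FOSB at 22.6%, JUNB at 36.1% and JUND at 46.4%. Without the 5000 bases on either side the AP-1 median was 20.02%, against 6.88% over all genes. The windows of the AP-1 list are short (median 20419.5 bases).

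In the list of RUNX, ETS and other transcription factor genes of claudin-low cells, 24 of 24 had a covered base, against 79.8% of all genes. Its median window was 88365 bases, against 34164 over all genes. At least 25% was covered in 17 (70.8% against 16.2% of all genes), with a median of 31.9%. TEAD1, the DNA-binding partner of YAP, had 97172 bases (34.7%), HMGA2, an architectural chromatin protein gene, 83057 (54.7%) and RUNX1 82177 (30.3%). HMGA1 stood at 65.8% and NFE2L2, the oxidative stress factor, at 64.2%. NF-kB and inflammatory genes, whose windows are short (median 17207.5 bases), had a median of 41.5%, with 24 of 24 covered somewhere and 18 at 25% or more. Claudin-low markers stood next to it at 41.3%, and without the flanks ribosomal protein genes were higher (62.01% against 57.7%). The cytokine gene LIF had its whole window of 16307 bases inside 1 peak. The chemokine gene CCL20 stood at 67.6%, the inhibitor gene NFKBIA at 62.9% and TNFAIP2 at 59.7%, while the subunit gene NFKB1 had 21857 bases over a longer window (17.4%). The latter was thus the least dense of those named.

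Focal adhesion and actomyosin genes had a covered base in 30 of 30, against 79.8% of all genes. Their windows are long (median 117210.5 bases against 34164 over all genes), and a longer window meets a peak more easily. At least 25% was covered in 13 (43.3% against 16.2% of all genes), with a median of 22.9%. After LPP, BCAR3 (113524 bases, 38.3%), an adaptor of the scaffold BCAR1, and PTK2 (76375 bases, 21.6%), the focal adhesion kinase gene, had the most. BCAR1 itself (63.5%), ACTN4 (59.1%), an actin crosslinker, and MYH9 (57.6%), the non-muscle myosin heavy chain, had the highest percents. The MYH9 coverage of 67221 bases came mostly from 1 peak of 59338 bases with a pileup of 34.1. Integrin and matrix receptor genes (median window 93862.5 bases) were covered in 22 of 22, and 9 reached 25%, with a median of 15.5%. The hyaluronan receptor gene CD44 (55499 bases, 53.8%) and the collagen receptor subunit ITGA2 (59062 bases, 51.2%) stood highest, followed by the proteoglycan gene SDC4 at 46.4%, whereas GPC6 had 115966 bases in 52 peaks over 9.65% of a long window.

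Receptor tyrosine kinase and MAPK genes were covered in 26 of 26, against 79.8% of all genes. Their median window was 51286 bases, against 34164 over all genes. Of them 12 reached 25% (46.2% against 16.2% of all genes), with a median of 23.4%. EGFR had 94961 bases (46.9%) in 12 peaks, of which 1 in the first part of the gene spanned 45375 bases. IGF1R had 70854 bases (21.7%), the MAPK inhibitor gene SPRED2 56607 (41.8%), the phosphatase gene DUSP5 63.8% and the EGFR ligand gene HBEGF 51.7%. Glucocorticoid receptor and target genes were covered in 16 of 16 and 8 reached 25%, with a median of 23.3%. The receptor gene NR3C1 had 74050 bases (44.2%) and FKBP5, a co-chaperone of the receptor, 34368 (20.8%). The metallothionein gene MT2A stood at 75.1%, the phosphatase gene DUSP1 at 69.4% and ERRFI1, an inhibitor of EGFR, at 52.4%. Without the flanks this list's median was 9.20%, against 6.88% over all genes.

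Mesenchymal genes were less uniform, with a covered base in 24 of 27 (88.9% against 79.8% of all genes). Their median window was 52544 bases, against 34164 over all genes. At least 25% was covered in 10 (37.0% against 16.2% of all genes), with a median of 15.8%. S100A4, a calcium-binding gene of motile cells, stood at 98.5% inside 1 peak, and the zinc finger repressor gene SNAI1 at 51.4%. ZEB1, another repressor of epithelial genes, had 55704 bases in 16 peaks (25.2%) and COL5A2, a fibrillar collagen gene, 68846 in 31 peaks (16.4%). TWIST1, COL6A3 and POSTN, mesenchymal genes as well, had no covered base. Core cell cycle genes were covered in 19 of 20 and 10 reached 25%, with a median of 27.5%. CDK6 had 118371 bases (49.0%), and CDK4 (56.9%), CCNA2 (51.5%) and CDK2 (49.3%) had the highest percents. CDKN2A, which codes for the CDK4 and CDK6 inhibitor p16, was the member with none, and it lay in a stretch of 4155943 bases without a peak that is described further on.

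Few of the genes that write or remodel chromatin reached 25% of the window, although their medians were above the 8.73% of all genes. SWI/SNF subunit genes had a covered base in 27 of 27, against 79.8% of all genes, in windows with a median of 61044 bases. Only ARID1A (40.8%) and PHF10 (28.7%) reached 25%, which is 7.41% of the list against 16.2% of all genes. The list's median was 12.8%, and without the flanks 7.83% against 6.88% over all genes. ARID1B, the paralogue of ARID1A, had 59170 bases in 24 peaks over 13.3% of its window, and the actin gene ACTB stood at 23.7%. H3K4 methyltransferase and demethylase genes (median window 64326.5 bases) were covered in 18 of 18, with a median of 9.82%. Only SETD1B (33.0%) reached 25%. KMT2C, one of the writers of the mark, had 29361 bases in 12 peaks (9.44%). Ribosomal protein genes, whose windows are short (median 14486 bases against 34164 over all genes), had 20 of 24 at 25% or more and a median of 35.5% (62.01% without the flanks). RPL19 stood at 69.7%, RPLP0 at 64.8% and RPL3 at 64.4%.

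Markers of the labelled cell type and of other types were read in the same way. All 12 markers of claudin-low breast cells had a covered base, against 79.8% of all genes. Of them 10 (83.3%) reached 25%, against 16.2% of all genes, with a list median of 41.3%. Of the luminal markers 15 of 18 were covered somewhere (83.3%, near the 79.8% of all genes). At least 25% was covered in 7 (38.9%), against 16.2% of all genes, with a list median of 17.8%. ELF3 stood at 98.7%, KRT19 at 56.5% and KRT18 at 51.9%, while PGR, TFF3 and AGR2 had none. All 15 epithelial markers had a covered base, against 79.8% of all genes, and 4 (26.7% against 16.2%) reached 25%. The list median was 19.4%, and CLDN4 at 68.0% and CLDN7 at 50.6% stood highest. CDH1, the E-cadherin gene, had 23935 bases in 10 peaks (22.1%). At −log10 q of at least 5 the epithelial median was 0, against 24.5% for the claudin-low markers, although CDH1, CLDN4 and CLDN7 each had a peak past it (highest −log10 q 20.3, 13.4 and 14.3). Basal markers were covered in 7 of 10 (70%, against 79.8% of all genes) and none reached 25% (median 5.45%).

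Markers of other cell types differed. Neuron markers had a covered base in 7 of 15 (46.7%) and muscle markers in 5 of 15 (33.3%), against 79.8% of all genes. Both lists had a median of 0 and no member at 25%, against 16.2% of all genes. Hepatocyte markers were covered in 9 of 15 (60%) with a median of 1.60%. SERPINA1 (58.5%) and APOA2 (33.6%) were the 2 at 25% or more, 13.3% of the list and near the 16.2% of all genes. Blood cell markers were covered in 12 of 16 (75%, against 79.8% of all genes; median 6.23%), with HBA1 at 29.1%. Fibroblast markers were covered in 7 of 8 (87.5%) with a median of 10.2%, above that of all genes. Of them 1 reached 25% (12.5%, near the 16.2% of all genes). Of the 23 lists, 18 had a median above the 8.73% of all genes, and several genes, such as EGFR, CD44 and ZEB1, stand in more than 1 list.

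**Figure D4:**
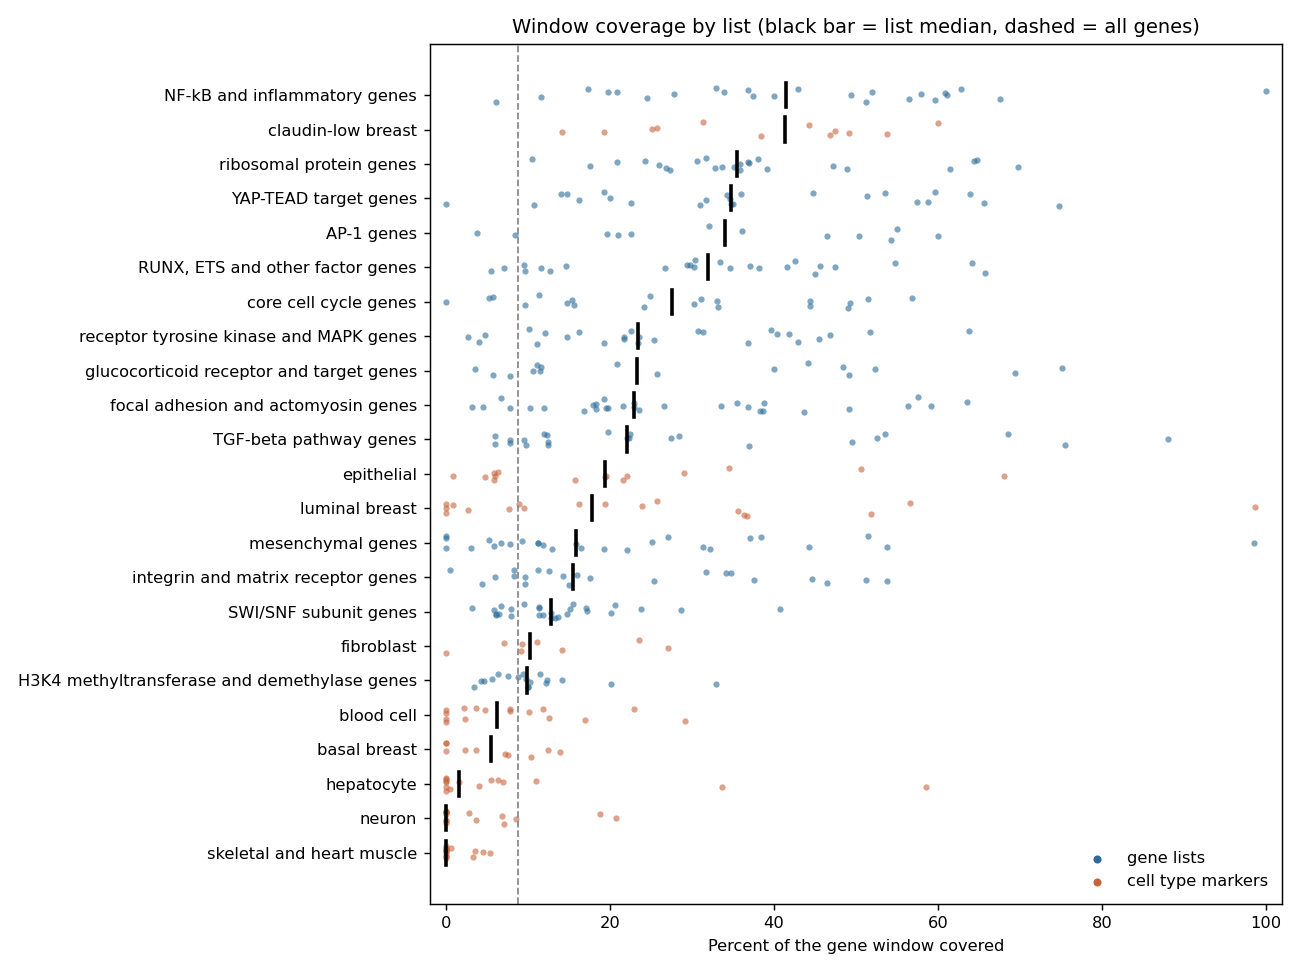
Each point is a gene, placed by the percent of its window covered by peaks, in 14 gene lists and 9 marker lists ordered by median (black bars). The dashed line is the median of all genes, 8.73%, and the 5 marker lists below it are those of blood cells, basal breast cells, hepatocytes, neurons and muscle.

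The order of start sites between peaks and inside one depended on the peak threshold. The RefSeq table of start sites held no gene of chromosome 8, so that chromosome is left out of these shares. For the 15812 genes with a start site in the RefSeq table, 24.1% (95% interval 23.4 to 24.8) of most upstream starts lay inside a peak. A further 28.0% lay between 2 peaks, each within 3000 bases, 15.9% had a peak within that distance on 1 side, and 32.0% had none. With peaks of −log10 q of at least 5 alone the order turned, with 12.9% inside a peak and 8.89% between peaks. The gap around a start between peaks had a median of 2010 bases (quartiles 1705 and 2471.5), with the upstream peak ending 884 bases away and the downstream peak beginning 1119 bases away. Where only 1 side had a peak, it was the downstream side in 68.5% of cases. As gaps below 1445 bases do not occur in the list, the covered class can hold narrower dips.

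The gap went with promoter sequence. CpG-rich promoters, here those with at least 55% GC and an observed over expected CpG ratio of at least 0.6 in the 250 bases before the start, lay between peaks in 40.4% of 8900 cases. CpG-poor promoters did so in 12.1% of 6912 cases, and 53.4% of them had no peak near, against 15.3% of the CpG-rich. At CpG-rich starts the share of sites with a peak was 27.2% at the start itself, 41.1% at 1100 bases upstream and 56.2% at 1500 bases downstream. At CpG-poor starts it stayed between 19.4% and 23.4% from 500 bases upstream to 1500 bases downstream. A shallow dip was present at CpG-poor starts too, with 22.6% at 500 bases upstream and 19.4% at 400 bases downstream. The dip, and the higher downstream shoulder, were thus much more marked at CpG-rich promoters in this list.

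**Figure D5:**
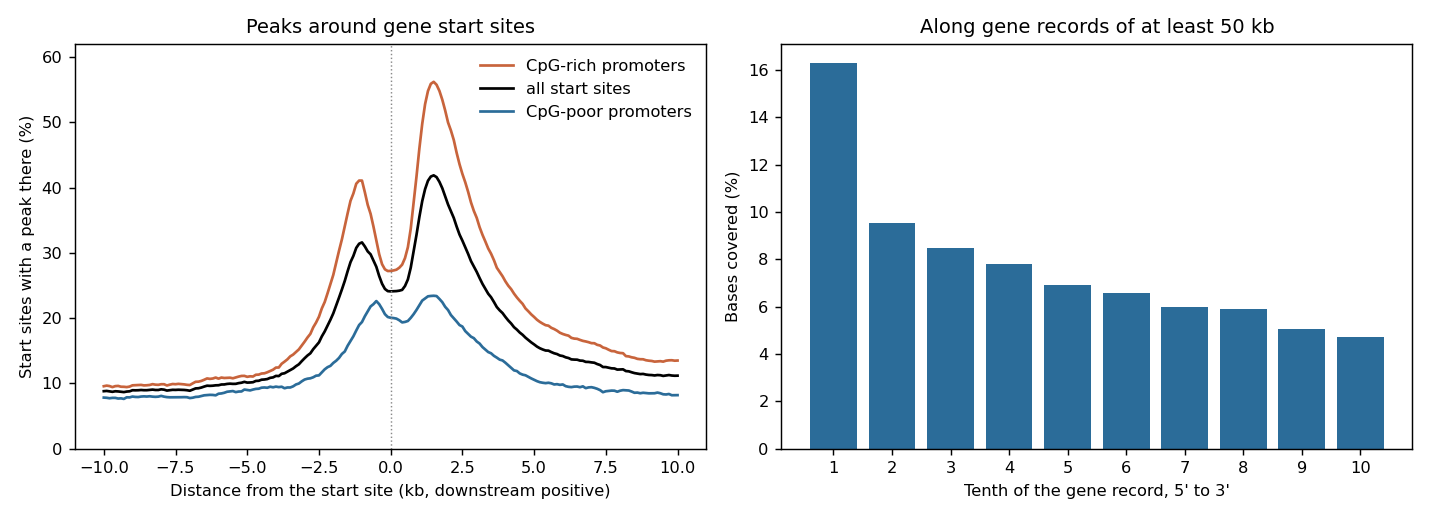
The left panel gives the percent of gene start sites with a peak at each distance (kb), for all 15812 starts, CpG-rich and CpG-poor promoters, with the shoulder at 1500 bases downstream reaching 56.2% for CpG-rich promoters. The right panel gives the percent of bases covered in each of 10 equal parts of 5133 gene records of at least 50000 bases, from 16.3% at the 5′ end to 4.72% at the 3′ end.

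Short motifs were counted in the 300 bases around each start (250 before, 50 after), on both strands. CCGGAAG, an ETS-type core, occurred in 14.1% of all 15812 promoters, in 21.6% of those inside a peak, in 20.9% of those between peaks and in 3.58% of those with no peak near. TATAAA occurred in 9.75% of all, in 5.90% of those inside a peak, in 4.99% of those between peaks and in 17.5% of those with none near. TGANTCA, the AP-1 type core, differed less, with 5.70% of all, 6.11% inside a peak, 3.82% between peaks and 7.58% with none near. GGAATG, a TEAD-type core, occurred in 11.8% of all promoters and in 9.85% to 13.3% of the 4 classes. CCAAT occurred in 36.4% of all and in 34.8% to 38.2% of the classes. Base composition differs between the classes as well, with a median GC of 66.4% between peaks and 54.4% with none near, and its part in these shares was not tested. None of these 5 motifs was found in the printed ARID1A, SMAD3 and PALLD promoters' windows, and the ALB window held CCAAT.

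Of the 25 genes leading by covered bases, 21 had a start in the table, and 11 of these lay between peaks. EXT1, ASAP1 and NRG1, all on chromosome 8, were among those without one. The starts of PALLD and FRMD4A were covered, 4 had a peak on 1 side, and those of FRMD6, TENM2, TENM3 and IQCJ-SCHIP1 had none within 3000 bases. The starts used for FRMD6, TENM2, TENM3 and FRMD4A lay 92697, 94213, 696350 and 322374 bases inside their records. That of RAD51B, with a peak on 1 side, lay 3762 bases inside. For FRMD6 and RAD51B the outer end of the record was itself in a peak, so these classes speak of the listed start alone. Over all genes 8.04% of the starts used lay more than 1000 bases inside the record. Among the 15 genes leading by percent, 13 had a start in the table, with 3 covered, 7 between peaks and 3 with a peak on 1 side.

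Within long genes the mark was concentrated at the 5′ end. In 5133 records of at least 50000 bases with a known strand, 16.3% of the bases in the first 10% of the record were covered and 4.72% in the last, with a fall at each step. That first part held 21.1% of these genes' covered bases. Peaks were also classed by the position of their midpoint alone. It lay within 1000 bases of an end of a coding record in 8.10% (7.90 to 8.30) of peaks. In 51.2% it lay elsewhere inside a record, and in 21.7% outside but within 50000 bases. The remaining 18.9% (18.6 to 19.2) lay farther from any coding gene. These distant peaks were narrower and lower, with a median width of 1403 bases and pileup of 14.125, against 1713 bases and 16.81 inside genes. Their median implied background was lower as well, at 4.16 against 4.66.

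The peak with the highest −log10 q (40.3) also had the highest pileup (78.46), spanned 7535 bases and overlapped WFDC3, a protease inhibitor-like gene, at chr20:45777158-45784692. RASA3, a Ras GTPase-activating protein gene, held the next by −log10 q (34.9, pileup 65.25, chr13:114062474-114069518). PEMT, of phosphatidylcholine synthesis, held the third (34.0, pileup 52.72, chr17:17509933-17513796). Others of the 10 most significant overlapped the autophagy gene ATG7, the flippase gene ATP9A and the laminin gene LAMA5, or lay 3346 bases from the mucin gene MUC5AC. TRIB1, a pseudokinase gene, was the nearest coding gene to 1 of them at 105085 bases and OGFRL1 to another at 34332 bases. Some of these 10 peaks thus overlapped no coding gene, and over all peaks 58.1% overlapped one. Whether the strongest peaks differ from the whole list in this was not tested. The distant peaks described above had a median −log10 q of 3.01, against 4.02 inside genes. None of the 10 was wider than 16008 bases, so the strongest and the widest peaks were different ones.

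The 10 widest peaks had pileups between 26.08 and 44.91, and 9 of them overlapped a coding gene. The widest covered EXT1 and the third SMAD3 (chr15:67068258-67162475). The second, of 95957 bases, lay over the noncoding gene PVT1 on chromosome 8 (127841413 to 127937369), 98462 bases from MYC, with a pileup of 44.91. Then came MYH9 (59338 bases, chr22:36326577-36385914), TRIO (57100), CRIM1 (56016), the reticulon gene RTN4 (53299), the adaptor gene SHB (51619), FNDC3B (51429) and the kinase gene MAP4K4 (48175). Among all 1559 peaks of at least 10000 bases, 78.9% overlapped a coding gene against 58.1% of all peaks. A start site of the RefSeq table, which has none on chromosome 8, was held by 7.95% against 4.78%. A wider region meets more genes by its length alone. Their median implied background was 6.17 against 4.61.

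Joining neighbouring peaks at a fixed stitching distance close to the median gap of 12320 bases gave 36526 clusters. Of all peaks, 27.9% stood alone, and 357 clusters of at least 10 peaks held 6.14% of the peaks and 9.65% of the covered bases. The EXT1 cluster was the largest, with 279956 covered bases in 9 peaks. PTPN14 followed among those at coding genes, with 145112 bases in 16 peaks, and RBMS1 with the integrin gene ITGB6 had 140000 in 26. SMAD3 had 135484 in 8, FRMD6 132544 in 10, and the TRIO cluster had 127322 bases in 5 peaks that filled 93.0% of its span. The ERRFI1 cluster had the most peaks of any, 29, for 117336 covered bases. The cluster over PVT1 had 191858 bases in 20 peaks and overlapped no coding gene.

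On a grid of 1 Mb, 2773 regions had a peak, their median coverage was 5.27%, and 41 were at least 20% covered. The ranking depended on the grid, since 3 of the 10 leading regions overlapped one of the 10 when it was moved by 0.5 Mb and 3 with regions of 5 Mb. The most covered ran from 50 to 51 Mb of chromosome 20, with 91 peaks over 36.8% of its bases, and holds the phosphatase gene PTPN1. Next came 94 to 95 Mb of chromosome 1 (27.8%), with ARHGAP29 and the tissue factor gene F3. The third, 116 to 117 Mb of chromosome 7 (27.3%), holds the receptor kinase gene MET, TES and the caveolin gene CAV1. The median implied background of the peaks in these regions was 1.85, 1.45 and 0.940 times that of all peaks. On chromosome 1, it was 0.961 times for 23 to 24 Mb and 1.01 times for 8 to 9 Mb. Of the 10 regions, 7 were above 1.3 times. What background contributes to these ranks was not tested. Others of the 10 held SMURF2, DST, HIF1A with PRKCH, and EPAS1 with PRKCE.

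Chromosomes differed in coverage more than in peak width. Coverage of the span ran from 2.01% on chromosome X and 3.88% on chromosome 18 to 8.71% on chromosome 19 and 9.22% on chromosome 17. Median width stayed between 1431.5 (chromosome 13) and 1707 bases (chromosome 17). Gene density and coverage went together (rank correlation 0.723 over 23 chromosomes). The median implied background ran from 0.595 times that of all peaks on X to 1.43 times on chromosome 20. Its rank correlation with median pileup was 0.981 over the 23 chromosomes, in part by construction since pileup enters both. The list gives no copy number, so copy number and mark density cannot be told apart here.

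Of the listed microRNA loci, those of miR-100 and let-7a-2 lay in the same peak of 46952 bases on chromosome 11, so that the whole window of each hairpin (5000 bases on either side) was covered. The third member of that cluster, MIR125B1, had 17.8% of its window covered. MIR30A was wholly inside a peak of 34441 bases on chromosome 6 (chr6:71384579-71419019) with a pileup of 66.64, the fifth highest of the list, while its neighbour MIR30C2 stood at 18.4% and MIR30C1 had none. MIR29A had 5.88% of its window covered and MIR29B1 13.1%, with a peak of 27901 bases reaching into the edge of both windows. MIR221 stood at 46.3% and MIR222 at 54.8%, MIR21, inside the VMP1 record, at 33.9%. The miR-200 family, which restrains ZEB1 and ZEB2 in epithelial cells, stood between 24.5% (MIR200B) and 29.8% (MIR141). Of 10 matched hairpins known from liver, muscle, neurons or blood, 7 had no covered base, among them MIR122 of liver, and the blood cell hairpin MIR142 stood highest at 44.2%. Over all 1558 hairpins, 709 (45.5%) had a covered base and 203 (13.0%) lay wholly inside a peak. The median percent of window over all hairpins was 0, below that of each listed miR-200 hairpin.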

How the data were processed

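Chromatin of MDA-MB-231 cells was digested with micrococcal nuclease and immunoprecipitated, per the labels' protocols. The submitters' processing notes name Bowtie2 2.3.5.1, MACS2 2.2.6 and the hg38 build. No source used here gives the peak calling parameters or the pooling of replicates. Per the file headers the deposited list gives each peak's width in bases, its pileup signal, its fold enrichment ratio, and its −log10 q value (a −log10 p column was not used). Depth is unknown. The control list was not used here beyond its number of regions.

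Here peaks were overlaid on RefSeq GRCh38.p14 protein-coding records with 5000 bases on either side (Python 3.11.15, pandas 2.3.3, numpy 2.4.6, scipy 1.17.1, matplotlib 3.10.9), and the code was tested on simulated intervals with known answers. Implied local background was (pileup + 1) / fold − 1, assuming a pseudocount of 1. Named genes were the 25 with most covered bases and the 15 with the highest percent (windows of at least 30000 bases; a gene overlapping a higher one was passed over), ARID1A, those at the 10 highest peaks, clusters and regions, and of each list the 3 most covered, the 3 highest by percent and up to 3 with none; one gene that this rule names is not reported here. All 441 entries of 23 lists matched by symbol, as did 35 of 40 hairpins. Start sites came from a RefSeq table with entries for 15812 of 19974 genes and for none on chromosome 8. The members and lists were chosen with earlier results of these data known. The joining distance for clusters was the one customary for stitching enhancers. Alternatives varied the flank, thresholds, joining distance and grid.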

Additional observations from a re-analysis of the deposited data

How the results depend on the processing

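No paired analysis was possible because each genotype has 1 deposited list, and leaving out a replicate could not be run for the same reason. With peaks of fold enrichment of at least 4 alone (12807 peaks), 6437 genes had a covered base and 778 had at least 25% covered. With −log10 q of at least 5 (27571 peaks) 2003 genes had at least 25%, and with 50000 bases on either side 1211. Of the 25 leading genes by bases, 16 remained at that q and 10 at that fold, with EXT1, DST, TRIO and PTPN14 among those kept under both. Of the 15 by percent, 3 remained with windows of at least 15000 bases and 5 with at least 60000. A gene end distance of 2500 bases gave 18.8% of peaks at gene ends. At −log10 q of at least 5, 14.9% of peaks were farther than 50000 bases from a coding gene, 12.9% of starts were covered, 8.89% lay between peaks (the reverse of the order with all peaks) and 58.8% had none near. The median width was 2823 bases at that q and 3207 at that fold, the median pileup 24.5 and 27.12, and the median gap 25976 bases at that q and 17310 with peaks up to 3000 bases apart merged. Clusters with at least 50000 covered bases numbered 181, and 51 with 5000 bases joined, 333 with 20000 and 56 at that q, with 6, 5 and 4 of the 10 largest overlapping. Of the 10 regions, 3 overlapped one of the 10 with regions of 5 Mb and 3 with the grid moved by 0.5 Mb. These thresholds leave fewer peaks by construction, and the cause of other shifts was not tested. With all 22012 start sites in the table, an alternative added after seeing the data, 24.1% were covered, 27.8% lay between peaks and 32.0% had none near. At −log10 q of at least 5 the median of the H3K4 enzyme genes was 4.90%, of the cell cycle genes 9.21% and of the focal adhesion genes 13.6%. Of the 23 lists, 18 had a median above that of all genes without the flanks and with 10000 bases, and 17 at that q. Precision is limited by unknown depth.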

Other observations

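Gene families that sit in long arrays differed widely in coverage. Of 392 olfactory receptor genes, 47 (11.99%) had a covered base, against 79.8% of all coding genes, and the median was 0. Keratin-associated protein genes had one in 12 of 94, bitter taste receptor genes (TAS2R) in 3 of 25 and defensin genes in 7 of 45. The homeobox (HOX) clusters, which pattern the body axis, were covered in 21 of 40 genes with a median of 1.63%, and none reached 25%. HOXB3 had the most, with 4787 bases. Protocadherin cluster genes were covered in 30 of 53, and none reached 25%. Of 74 core histone genes, 26 (35.1%) reached 25% of their short windows, against 16.2% of all genes. C2H2 zinc finger genes named ZNF were covered in 438 of 517 (84.7%), near the 79.8% of all genes. Their median was 7.04%, against 8.73% over all genes.

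The longest stretches without a peak were set beside the genes they hold. Several of the longest span centromeres, where the list cannot tell unmarked from unmapped sequence. A stretch of 6816732 bases on chromosome 11 (50094203 to 56910934), which spans the centromere, held 49 coding genes, of which 47 were olfactory receptors. The stretch of 4155943 bases on chromosome 9 (20756497 to 24912439) held 24 coding genes, of which 16 were type I interferon genes, with MTAP, CDKN2A and CDKN2B among the others. Missing DNA and unmarked DNA cannot be told apart from peaks alone. On chromosome X a stretch of 4068311 bases (30888253 to 34956563) held DMD, the dystrophin gene.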
